A study of Homo sapiens with 6 samples.

Results

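The 10 genes set out here encode proteins of stress granules, and their messenger RNA was followed in Rh30 cells with and without knockdown of the RNA helicase DDX5. They are CAPRIN1, CAPRIN2, G3BP1, G3BP2, TIA1, TIAL1, ATXN2, ATXN2L, FMR1 and PABPC1, taken by symbol, 10 of 35580 genes and 208 of 188753 transcripts in the deposited tables. CAPRIN2 was included because its transcript usage differed between these same libraries, so its values are given as a description with no test. The other 9 genes were included for their place in the granule. In these cells 1 CAPRIN2 transcript that skips a frame-shifting exon was listed at under 1 count in every control library. It made up 6.17% to 13.1% of the gene's counts in every siDDX5 library. Those counts depend on how reads were divided among transcripts that share exons, and no error of that division is known. The gene-level test called none of the other 9 genes, where it called 0.164% of all genes. In FMR1 and G3BP2 the inclusion of an in-frame exon did not overlap between the groups, although neither exon passed the test. Over all alternative exons and splice sites 10.7% did not overlap. The FMR1 and G3BP2 exons were picked on values of these same libraries.

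Rh30 is an established cell line from an alveolar rhabdomyosarcoma, a tumour of the skeletal muscle lineage, and carries the PAX3-FOXO1 gene fusion. Both groups are cultures of this 1 line and share that fusion. One group of 3 libraries is labelled control and the other 3 siDDX5, a knockdown of DDX5 by small interfering RNA as its name gives it. Each group holds biological replicates 1 to 3. The agent given to the control cells, the siRNA sequences and the time after transfection are not given in the sources used here. Messenger RNA was sequenced from whole cultures, so fewer cells with a transcript and less of it in each cell cannot be told apart.

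A stress granule is a cytoplasmic body of messenger RNA and protein that forms when translation initiation is blocked, classically when stress kinases phosphorylate the initiation factor eIF2alpha. G3BP1 and G3BP2 are the scaffold: they bind RNA released from ribosomes and, with CAPRIN1 as partner, condense with it. TIA1 and TIAL1, ATXN2 and ATXN2L, FMR1 and the poly(A)-binding protein PABPC1 join them. Several of these genes are spliced in more than 1 way. Messenger RNA whose reading frame ends early, with exon junctions after the stop codon, is a known substrate of nonsense-mediated decay.

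DDX5 itself was lower in all siDDX5 libraries, at 549.4, 504.5 and 395.9 CPM (counts scaled to a common library total with TMM factors) against 1352, 1434 and 1137 CPM in the control (log2 fold change -1.44, SE 0.15, edgeR adjusted p 0.0106). That call was lost in the 3 TPM-based fits, where the adjusted p was 0.0667 to 0.0927, and without control replicate 1 (0.0959), siDDX5 replicate 1 (0.0653) or siDDX5 replicate 2 (0.053). The control libraries held 21265569 to 26156858 estimated counts and the siDDX5 libraries 18202402 to 19971888, so depth moved with the group. A count of 3 corresponded to 0.115 to 0.165 CPM. The part of depth in the results was not tested. All 8 muscle-lineage markers had a mean of at least 1 TPM (transcript abundance scaled for length and to a common total) in at least 1 group, summing to 1210 to 1530 TPM in the control and 1150 to 1230 in siDDX5. Of 6 epithelial markers 2 reached that level, summing to 13.1 to 21.2 and 15.6 to 17.6 TPM, with KRT19 listed at 0 in all libraries. Of 6 blood-cell markers 2 did, at 3.44 to 4.49 and 1.62 to 4.66 TPM with HBB listed at 0, and of 5 endothelial markers 1 did, at 5.78 to 7.44 and 4.71 to 6.56 TPM. The summed levels of all 4 marker lists overlapped between the groups.

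All 10 genes were expressed in both groups, with the same genes at the top and the bottom of the order. On the per-length scale the control means ran from PABPC1 at 585.9 ± 28.8 TPM (SD, n = 3) and CAPRIN1 at 344.3 ± 32.7 down to CAPRIN2 at 75.19 ± 10.8 and ATXN2 at 36.4 ± 3.1. TIAL1 at 252.8 ± 48.0, TIA1 at 207.4 ± 34.5, G3BP1 at 207.0 ± 17.5, FMR1 at 195.7 ± 22.5 and G3BP2 at 174.2 ± 17.3 lay between them. Neighbours among these 5 overlapped over the control libraries. ATXN2L at 110.2 ± 18.6 TPM stood apart from both its neighbours, as did the genes at either end.

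The gene-level test of siDDX5 against control, fitted over 15223 genes, called 0 of the 9 genes other than CAPRIN2, where it called 0.164% of all genes. None had an unadjusted p under 0.05, a level that 11.4% of all genes reached. By DESeq2, 0 of the 9 were called, beside 2.99% of all genes, and 1 had an unadjusted p under 0.05, beside 10.8%. Their log2 fold changes ran from -0.19 to 0.21 with a median of -0.01, beside a median of 0.00 for all genes. The CPM values of the groups did not overlap for 3 of the 9 genes, G3BP2 and PABPC1 on the higher side and ATXN2L on the lower. Over all genes 18% had groups without overlap, 8.87% higher and 9.16% lower. On the TPM scale the groups overlapped for all 9 genes, beside 5.49% of all genes separate on the higher and 9.16% on the lower side. Within the same-numbered pairs of libraries, siDDX5 was higher in every pair for 2 of the 9 (G3BP2 and PABPC1) and lower in every pair for 3 (TIA1, ATXN2 and ATXN2L), beside 21.8% and 21.1% of all genes.

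**Figure D1:**
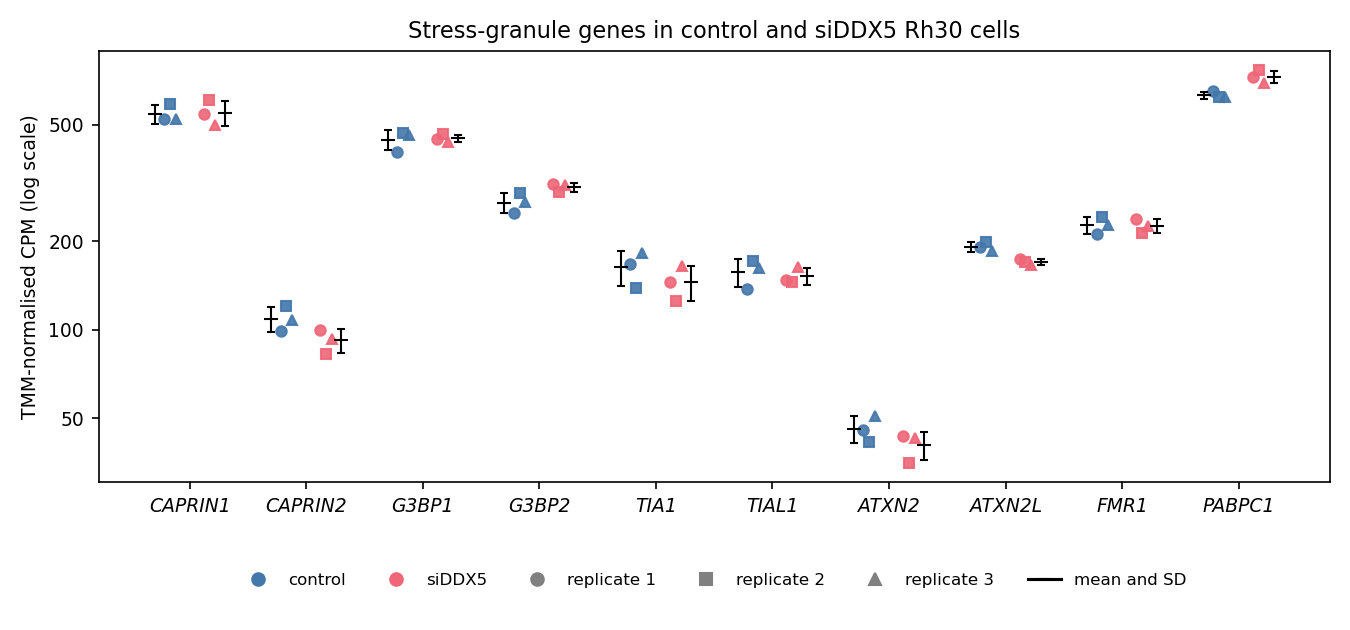
TMM-normalised CPM on a log axis for the 10 stress-granule genes, 1 point per library, with the group mean and SD as black bars. Within a gene the groups lie close together, and the points separate for G3BP2, PABPC1 and ATXN2L.

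The scaffold genes kept their levels within a narrow range. G3BP1 (chr5:151771045-151812785, plus strand), the main RNA-driven scaffold of the granule, measured 403.9, 469.1 and 461.3 CPM in control replicates 1 to 3 and 447.5, 463.9 and 437.5 CPM in siDDX5 replicates 1 to 3. The siDDX5 libraries lay within the control range, and the log2 fold change was 0.02 (SE 0.10, adjusted p 0.974 by edgeR). Its paralog G3BP2 measured 249.2, 291.6 and 271.8 CPM in control cells and 313.8, 294.4 and 310.4 CPM in siDDX5. The lowest siDDX5 library was above the highest control library by a small margin, with a log2 fold change of 0.18 (SE 0.10, adjusted p 0.547). The ratio of G3BP2 to G3BP1 on the TPM scale was 0.819, 0.845 and 0.857 in the control and 0.931, 0.885 and 0.893 in siDDX5. This ratio did not overlap between the groups, on the CPM scale either, where it was 0.589 to 0.622 in the control and 0.635 to 0.71 in siDDX5. A two-sided exact permutation test gave p = 0.1, the smallest value that 3 against 3 libraries allow, for 1 of 3 paralog ratios tested. The ratio of TIAL1 to TIA1 (p = 0.4, exact permutation test on the TPM scale) and that of ATXN2 to ATXN2L (p = 0.9, same test) overlapped.

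CAPRIN1 (chr11:34051683-34101156, plus strand), the cytoplasmic partner that binds G3BP1, measured 521.2, 590.0 and 521.0 CPM in control cells and 543.6, 604.7 and 499.1 CPM in siDDX5. Replicate 2 was the highest in each group, and the log2 fold change was 0.01 (SE 0.11, adjusted p 0.981). CAPRIN2, a relative with a C1q-like domain at its end, measured 99.2, 120.5 and 108.0 CPM in control cells and 100.1, 82.6 and 93.2 CPM in siDDX5. The groups overlapped only through control replicate 1 and siDDX5 replicate 1, with a log2 fold change of -0.25 (SE 0.12). The TPM ratio of CAPRIN2 to CAPRIN1 was 0.194, 0.221 and 0.24 in the control and 0.193, 0.135 and 0.179 in siDDX5. Its highest siDDX5 value was just under the lowest control value, so the separation rests on a small gap between the libraries of replicate 1.

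CAPRIN2 (ENSG00000110888.17) lies on the minus strand of chromosome 12, at chr12:30709552-30754951 in GRCh38, the build of all coordinates given here, and has 19 transcripts in the tables. A pair of its alternative exons are shown because their inclusion did not overlap between the groups and differed by at least 10 points. They also tell apart the transcripts that differed most in share. The 83-base exon at chr12:30733629-30733711 lies in the coding sequence of ENST00000298892.9, and its length is not a multiple of 3. It is printed in capitals with 10 bases of the neighbouring exons in lower case, and then, in the same way, the 147-base exon at chr12:30719079-30719225, which keeps the frame. All are from the GENCODE release 29 transcripts, 5′ to 3′ on the RNA strand.
CAPRIN2 83-base exon: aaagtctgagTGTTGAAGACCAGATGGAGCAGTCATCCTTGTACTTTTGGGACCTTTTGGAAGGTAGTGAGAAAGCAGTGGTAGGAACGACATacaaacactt
CAPRIN2 147-base exon: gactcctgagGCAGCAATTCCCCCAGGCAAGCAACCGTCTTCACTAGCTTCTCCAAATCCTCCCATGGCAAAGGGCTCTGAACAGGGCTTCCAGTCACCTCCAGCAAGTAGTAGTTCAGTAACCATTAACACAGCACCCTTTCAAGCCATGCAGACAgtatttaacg

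GENCODE annotates ENST00000454014.6 as a substrate of nonsense-mediated decay. It differs from ENST00000298892.9 by skipping the 83-base exon and by including the 147-base exon.

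The transcript ENST00000454014.6 was listed at 0.005199, 0 and 0 estimated counts in control replicates 1 to 3 and at 264.9, 156.9 and 104.5 in siDDX5 replicates 1 to 3. All control libraries are under the floor of 3 counts, although they held more counts in total than the siDDX5 libraries. Estimated counts divide reads among transcripts that share exons, and the deposited values hold no error for that division. Whether the transcript was absent from the control cells was not tested. As a share of the gene's counts in siDDX5 it was 13.1%, 10.3% and 6.17%, a mean of 9.84% ± 3.47 (SD, n = 3), and replicate 1 was the highest. Among 7568 genes with a mean of at least 500 counts, 5 had a transcript under 1 count in every control library and at least 5% in every siDDX5 library, CAPRIN2 among them, which is 0.0661%. For 6 genes, or 0.0793%, a transcript had the opposite pattern. Such on-and-off transcripts were therefore about as many in either direction.

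The protein-coding transcript ENST00000298892.9 held 30.7%, 31.2% and 29.5% of the CAPRIN2 counts in the control and 18.8%, 23.1% and 25.9% in siDDX5. Every siDDX5 share was below every control share, and siDDX5 replicate 1, the lowest here, was the highest for ENST00000454014.6. The smaller coding transcript ENST00000395805.6 held 4.83%, 5.31% and 5.77% in the control and 3.67%, 2.11% and 2.18% in siDDX5, also without overlap. The largest transcript, ENST00000537553.5, annotated for decay, held a mean of 35.5% in the control and 37.6% in siDDX5. ENST00000548676.5, also annotated for decay, held 13.2% and 15.0%, and the coding ENST00000433722.6 held 6.86% and 5.78%. The libraries of the groups overlapped for these 3.

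**Figure D2:**
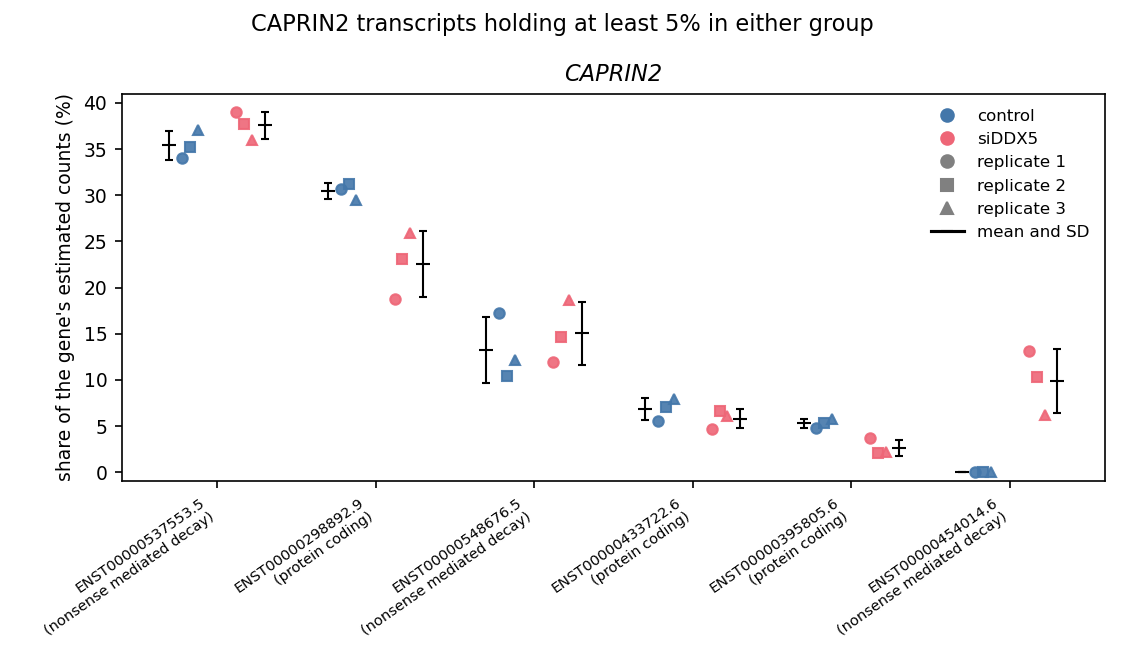
Share of the estimated CAPRIN2 counts (%) held by each transcript with at least 5% in either group, 1 point per library, with the group mean and SD as black bars. ENST00000454014.6 sits at 0 in the 3 control libraries and at 6.17% to 13.1% in the siDDX5 libraries, while ENST00000298892.9 lies lower in siDDX5.

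By annotated class, the 10 protein-coding transcripts of CAPRIN2 together held 44.3%, 48.9% and 46.7% of its counts in the control and 30.2%, 33.6% and 35.7% in siDDX5. The 3 transcripts annotated for nonsense-mediated decay held 51.3%, 45.6% and 49.2% in the control and 64.0%, 62.6% and 60.8% in siDDX5. The 2 classes thus exchanged about the same share, a mean of -13.5 points for coding and 13.8 points for decay. In CPM the coding class was 43.9, 58.9 and 50.4 in the control and 30.3, 27.7 and 33.3 in siDDX5, without overlap. The decay class was 50.8, 54.9 and 53.1 CPM in control cells and 64.0, 51.7 and 56.6 in siDDX5, and these overlapped. On the CPM scale the groups were therefore separate in the coding class and not in the decay class. On the TPM scale, which gives short transcripts more weight, both classes overlapped: the coding class summed to 26.9, 38.4 and 38.9 TPM in the control and 27.1, 16.2 and 20.0 in siDDX5.

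Inclusion of each exon was read as the TPM of transcripts that contain it between a given pair of neighbouring splice sites. It is a percentage of these and the transcripts that join that same pair directly. Transcripts with other neighbouring splice sites are left out, so the 147-base exon was read from 5 transcripts with it and 1 without. The 83-base exon was included in 46.6%, 54.4% and 51.0% in the control and 33.2%, 37.2% and 38.4% in siDDX5, a mean difference of -14.4 points. The 147-base exon was included in 52.4%, 47.9% and 49.3% in the control and 65.9%, 63.6% and 61.4% in siDDX5, a mean difference of 13.8 points. Both exons were therefore in use in the control cells. Groups without overlap and a difference of at least 10 points were the conditions for showing them, so their separation is no test. A neighbouring in-frame exon of 105 bases at chr12:30720811-30720915 was included in 76.6%, 69.5% and 75.0% in the control and 80.6%, 85.4% and 84.5% in siDDX5. In all, 7 of 16 alternative exons and splice sites of CAPRIN2 did not overlap between the groups, and 2 of these differed by at least 10 points. These events share transcripts and are not independent of one another. Over all 44471 events 10.7% did not overlap, and 3.56% also differed by at least 10 points, but CAPRIN2 was chosen on this contrast and its count is no test.

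Of the 91 events in the other 9 genes, 12 did not overlap, beside 10.7% of all events. Of the 91 events, 3 did not overlap and also differed by at least 10 points, beside 3.56% of all events. By limma, 0 of the 91 events were called, as were 0% of all events, and 4 had an unadjusted p under 0.05, beside 6.32% of all events. The transcript-level edgeR test called 0 of 107 transcripts tested, as 0% of all transcripts were called, and 11 had an unadjusted p under 0.05, beside 7.08% of all. The test of transcript usage within a gene (Simes, diffSpliceDGE in edgeR) called 0 of the 9 genes, where it called 1.59% of all genes, and 0 of 9 with the replicate block, where it called 1.21%. Its gene-level F form called FMR1 and G3BP2 of the 9, where it called 1.62% of all genes. The 3 in-frame exons described next, in FMR1, G3BP2 and TIA1, are known to give different protein forms.

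**Figure D3:**
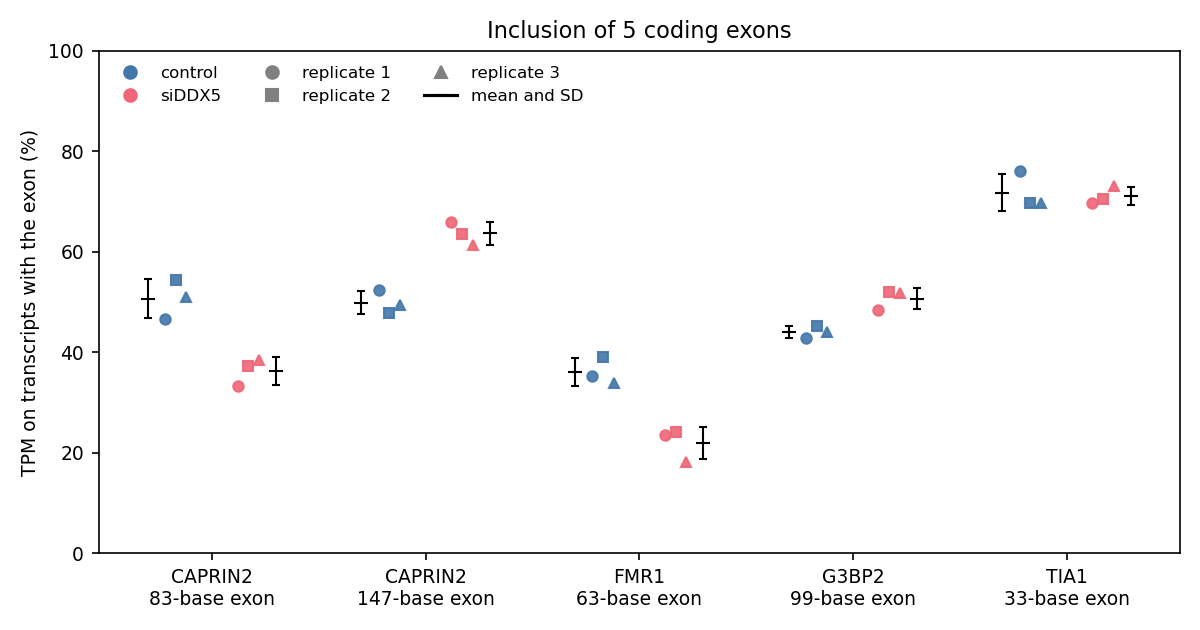
Inclusion of 5 coding exons (%), 1 point per library, with the group mean and SD as black bars. It is the TPM on transcripts with the exon over that on transcripts with or without it between the same neighbouring splice sites. The groups are separate for the 2 CAPRIN2 exons, the FMR1 exon and the G3BP2 exon and overlap for the TIA1 exon. The CAPRIN2 and G3BP2 exons were picked among those without overlap, and the FMR1 exon for its difference.

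FMR1 encodes FMRP, a repressor of translation that binds RNA through KH domains and is lost in fragile X syndrome. The gene (ENSG00000102081.14, chrX:147911951-147951125, plus strand) measured 211.5, 242.0 and 227.5 CPM in control cells and 238.7, 213.5 and 225.8 CPM in siDDX5. The siDDX5 range lay inside the control range, with a log2 fold change of -0.01 (SE 0.10, adjusted p 0.992). Its transcripts differed in share. The 63-base exon at chrX:147938099-147938161 is shown because its inclusion differed most between the groups among the alternative exons of FMR1. It also gave the FMR1 event with the smallest p. The exon lengthens a loop of a KH domain and keeps the frame. Capitals mark the exon.
FMR1 63-base exon: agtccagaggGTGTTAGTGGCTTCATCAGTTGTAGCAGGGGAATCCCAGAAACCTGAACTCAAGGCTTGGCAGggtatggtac

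Inclusion of this exon was 35.3%, 39.1% and 33.8% in the control and 23.5%, 24.1% and 18.2% in siDDX5, a mean difference of -14.1 points. All siDDX5 libraries were below all control libraries, and the unadjusted limma p was 0.00798, with an adjusted p of 0.685. The exon was picked on this difference, so its unadjusted p is no test by itself. The transcript ENST00000370475.8, which contains the exon, held 23.1%, 26.8% and 25.5% of the gene's counts in the control and 13.3%, 20.0% and 14.8% in siDDX5. As a single transcript it differed by -0.63 (log2; SE 0.17, adjusted p 0.551 by edgeR), while DESeq2 gave -0.61 with an adjusted p of 0.0408. DESeq2 called 3 of the 63 transcripts of the 9 genes to which it gave an adjusted p, beside 2.85% of all transcripts. The groups were separate, and the call depended on the tool. The transcript ENST00000440235.6 held 6.41%, 7.83% and 9.25% in the control and 9.52%, 17.3% and 15.7% in siDDX5, again without overlap (log2 fold change 0.87, SE 0.25, edgeR adjusted p 0.603). ENST00000218200.12 held 25.8%, 20.7% and 23.5% in the control and 42.1%, 24.5% and 34.7% in siDDX5. This transcript overlapped, because siDDX5 replicate 2 fell inside the control range.

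Nearer the end of FMR1, an alternative acceptor adds 51 bases in frame at chrX:147948683-147948733. The longer form made up 59.1%, 62.2% and 63.7% in the control and 67.5%, 66.7% and 70.3% in siDDX5 (limma adjusted p 0.796). The 5 FMR1 transcripts annotated as retained intron held 11.4%, 13.7% and 11.4% of the counts in the control and 7.94%, 9.5% and 9.14% in siDDX5. The coding class held 87.7%, 85.2% and 87.4% in the control and 91.2%, 89.8% and 90.1% in siDDX5. Each of these measures separated the groups by a few points. The usage test gave FMR1 a Simes adjusted p of 1, against 0.00931 in its F form.

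G3BP2 (ENSG00000138757.14, chr4:75642782-75724525, minus strand) is known in a longer and a shorter form that differ by a stretch in the middle of the protein. The 99-base exon at chr4:75653983-75654081 is shown as the highest in TPM of the G3BP2 exons whose groups did not overlap. It was also the highest of all alternative exons of the gene. It separates the pair of transcripts that hold nearly all of the gene's counts. Capitals mark the exon.
G3BP2 99-base exon: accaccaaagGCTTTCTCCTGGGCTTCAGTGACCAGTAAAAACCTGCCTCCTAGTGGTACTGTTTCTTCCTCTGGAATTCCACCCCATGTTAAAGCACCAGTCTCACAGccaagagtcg

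Its inclusion was 42.9%, 45.2% and 44.1% in the control and 48.3%, 52.0% and 51.7% in siDDX5, a mean difference of 6.56 points (limma adjusted p 0.80). Groups without overlap were a condition for showing this exon, so their separation is no test. The spread within each group was small. ENST00000395719.7, with the exon, held 51.8%, 53.8% and 53.2% of the counts in the control and 57.7%, 61.1% and 61.3% in siDDX5. ENST00000357854.7, without it, held 45.3%, 42.7% and 43.9% in the control and 40.2%, 36.3% and 36.8% in siDDX5. These transcripts also differ in their first exon and 3′ end, so the shares do not rest on the exon alone. At the transcript level the form with the exon had a log2 fold change of 0.40 (SE 0.10, adjusted p 0.506 by edgeR) and the form without it 0.00 (SE 0.10, adjusted p 1.00). DESeq2 gave the form with the exon 0.41 with an adjusted p of 0.00154. Of the pair, the form with the exon had a difference above its standard error and the other form did not. A further 132-base exon of G3BP2, on transcripts of low level, was included in 31.9%, 23.9% and 30.8% in the control and 22.7%, 23.3% and 5.91% in siDDX5 between one pair of neighbouring exons (adjusted p 0.81). Between another pair of neighbouring exons the same exon was included in 14.1%, 12.5% and 29.4% against 18.6%, 9.75% and 7.98%, with overlap (adjusted p 0.842). The usage test gave G3BP2 a Simes adjusted p of 1, against 0.0209 in its F form.

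**Figure D4:**
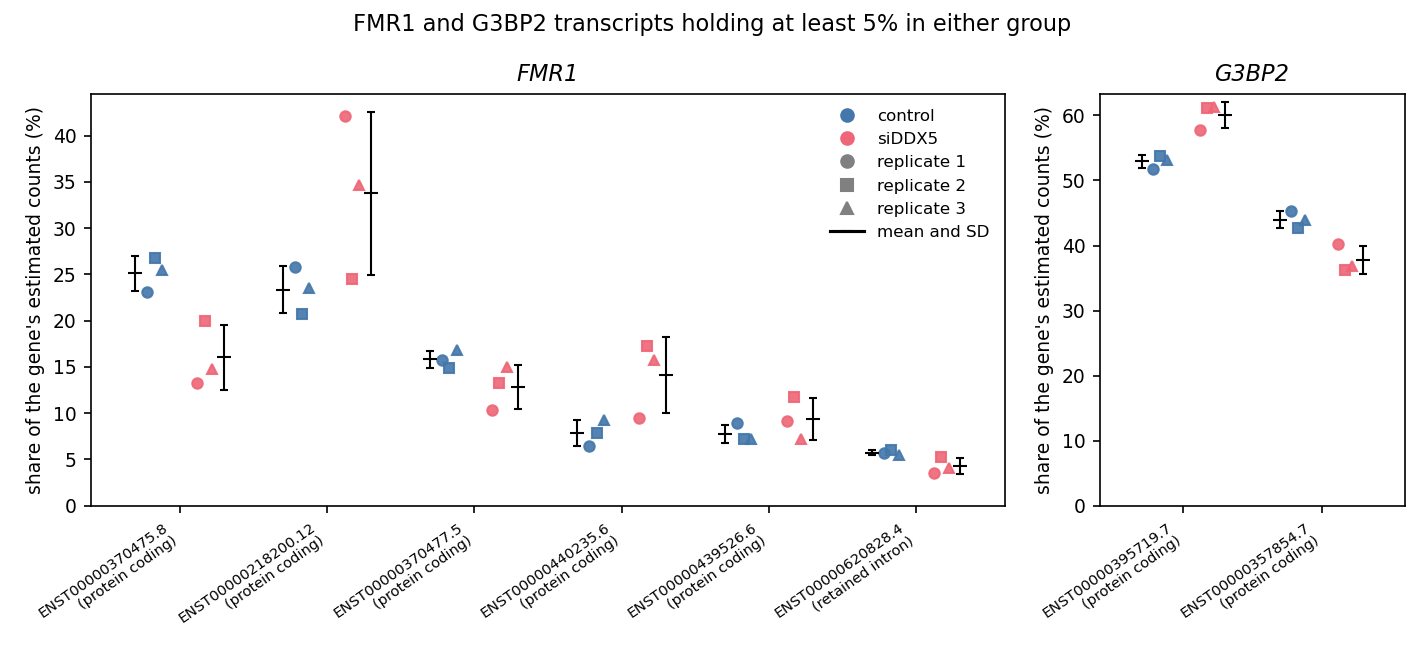
Share of the estimated counts (%) of FMR1 (left) and G3BP2 (right) held by each transcript with at least 5% in either group, 1 point per library, with the group mean and SD as black bars. The FMR1 transcript ENST00000370475.8 and the G3BP2 transcript ENST00000357854.7 lie lower in siDDX5, and the G3BP2 transcript ENST00000395719.7 lies higher.

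The self-associating proteins TIA1 and TIAL1, which bind U-rich RNA and repress translation, had group ranges that overlapped. TIA1 (chr2:70209444-70248660, minus strand) measured 167.9, 139.1 and 183.3 CPM in control cells and 146.0, 124.9 and 164.4 CPM in siDDX5 (log2 fold change -0.17, SE 0.14, adjusted p 0.685). It was lower in siDDX5 in each of the 3 pairs, and with the pairs as a block the SE was 0.08 and the adjusted p 0.278. TIAL1 (chr10:119571802-119597029, minus strand) measured 137.5, 171.4 and 163.0 CPM in control cells and 147.8, 145.9 and 164.0 CPM in siDDX5 (log2 fold change -0.04, SE 0.12, adjusted p 0.919). The 33-base exon of TIA1 at chr2:70229059-70229091, which separates its known a and b forms, was included in 76.0%, 69.6% and 69.6% in the control and 69.7%, 70.4% and 73.1% in siDDX5. The mean difference was -0.674 points, with an adjusted p of 0.976. A 376-base exon of TIAL1, which does not keep the frame, was included in 14.9%, 15.1% and 15.4% in the control and 12.5%, 14.0% and 12.8% in siDDX5 (adjusted p 0.848). The groups did not overlap for this 1 of 6 TIAL1 events and for 0 of 7 TIA1 events, beside 10.7% of all events. The 3 main TIA1 transcripts, ENST00000433529.7, ENST00000415783.6 and ENST00000282574.8, held 18.4% to 39.1% each in control libraries and 17.4% to 40.2% in siDDX5 libraries, with overlap for each. The same held for the main TIAL1 transcript, ENST00000369093.6, at 33.7% to 39.3% and 34.6% to 40.4%.

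ATXN2 and ATXN2L encode relatives that bind the poly(A)-binding protein and stabilise messenger RNA. ATXN2 (chr12:111443485-111599676, minus strand), the least abundant member, measured 45.5, 41.5 and 51.0 CPM in control cells and 43.4, 35.2 and 42.6 CPM in siDDX5 (log2 fold change -0.19, SE 0.13, adjusted p 0.617). It too was lower in each of the 3 pairs, with an SE of 0.09 and an adjusted p of 0.28 when blocked. ATXN2L (chr16:28823035-28837237, plus strand) measured 190.9, 199.9 and 185.3 CPM in control cells and 174.5, 170.1 and 165.9 CPM in siDDX5 (log2 fold change -0.17, SE 0.09, adjusted p 0.523). The CPM values of ATXN2L were tight within each group and did not overlap, while its TPM values of 92.08 to 129.2 in the control and 79.42 to 95.13 in siDDX5 overlapped. Its transcript ENST00000564304.5 held 8.28%, 10.4% and 9.05% in the control and 6.85%, 6.74% and 7.68% in siDDX5 (log2 fold change -0.52, SE 0.16, adjusted p 0.625). A 210-base exon of ATXN2 was included in 98.1%, 85.0% and 87.9% in the control and 77.7%, 57.7% and 81.1% in siDDX5 by TPM. The mean difference was -18.2 points by TPM and -1.61 points by estimated counts, so its size depended on the unit. A 6-base donor extension of ATXN2 was used in 61.7%, 65.6% and 61.8% in the control and 73.2%, 69.1% and 69.8% in siDDX5 (adjusted p 0.808). The same extension on other transcripts of much lower level was used in 17.1%, 72.3% and 16.7% against 10.2%, 61.7% and 34.9%, with overlap (adjusted p 0.995).

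PABPC1, which coats poly(A) tails and is widely used as a marker of stress granules, was the most abundant member. It measured 650.1, 622.0 and 620.3 CPM in control cells and 725.5, 766.0 and 696.2 CPM in siDDX5 (log2 fold change 0.21, SE 0.10, adjusted p 0.471). All siDDX5 libraries were above all control libraries in CPM, and in TPM control replicate 2 at 617.9 lay above siDDX5 replicate 3 at 613.6. Its transcripts ENST00000318607.10 and ENST00000519004.5 held 46.2% to 53.3% and 36.6% to 41.1% of the counts in the control, and 48.0% to 55.4% and 34.7% to 41.8% in siDDX5. Both shares overlapped. ENST00000519004.5 had a log2 fold change of 0.28 (SE 0.09, adjusted p 0.639 by edgeR), and DESeq2 gave 0.29 with an adjusted p of 0.0452. Near-identical copies of this gene exist elsewhere in the genome, so its counts are uncertain as far as reads were divided among them.

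Further transcripts with at least 5% in either group are given for G3BP1 and CAPRIN1. Not all transcripts of that size are given. Those of ATXN2 (6) are left out, and those of ATXN2L (6), FMR1 (6), TIAL1 (5), PABPC1 (3) and G3BP1 (3) are given in part. In G3BP1 the coding ENST00000394123.7 held 39.7% to 42.9% in the control and 41.2% to 47.7% in siDDX5. ENST00000356245.8, a few bases shorter, held 16.5%, 17.2% and 21.6% in the control and 15.9%, 14.1% and 16.1% in siDDX5, without overlap (log2 fold change -0.22, SE 0.16, adjusted p 0.845). The decay-annotated class of G3BP1 held 39.3% ± 1.07 in the control and 38.5% ± 2.98 in siDDX5 (SD, n = 3), so a large share of such transcripts was present in both groups. In CAPRIN1, ENST00000529307.1 held 13.2%, 11.1% and 13.9% in the control and 11.1%, 6.38% and 9.51% in siDDX5 (log2 fold change -0.47, SE 0.17, adjusted p 0.676). The separation rests on siDDX5 replicate 1 lying just under control replicate 2. The processed transcript ENST00000533657.5 of CAPRIN1 held 25.3%, 22.9% and 24.9% in the control and 24.8%, 33.5% and 28.6% in siDDX5, with overlap through siDDX5 replicate 1 (log2 fold change 0.32, SE 0.18, adjusted p 0.787). The other 3 CAPRIN1 transcripts of that size also overlapped between the groups. Among minor transcripts named for the smallest usage p of their gene, ENST00000548492.1 of ATXN2 held 1.57%, 2.36% and 1.69% in the control and 0.46%, 0.824% and 0.725% in siDDX5 (log2 fold change -1.61, SE 0.43, adjusted p 0.546). ENST00000507947.5, a retained-intron transcript of G3BP2, held 0.296%, 0.62% and 0.436% against 0.0708%, 0.186% and 0.114% (log2 fold change -1.68, SE 0.50, adjusted p 0.605). ENST00000531668.1 of CAPRIN1 held 0.0665% to 0.101% against 0.114% to 0.343%, and ENST00000496452.5 of TIA1 held 2.57% to 3.39% against 1.18% to 2.56%. These 4 minor transcripts did not overlap between the groups, on few counts, and ENST00000325215.10 of ATXN2L and ENST00000518716.1 of PABPC1 overlapped. They were picked by a p value from these same libraries, so the separation is no test. The share without overlap over all transcripts was not counted.

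Across the set, the decay-annotated class was separate between the groups, on the higher side, in CAPRIN2. FMR1 was separate on the lower side, at 1.05% ± 0.129 in the control and 0.79% ± 0.087 in siDDX5 (SD, n = 3). That class of FMR1 held 50.19 to 65.13 estimated counts in the control libraries and 27.7 to 42.37 in the siDDX5 libraries. The share of this class overlapped in G3BP1, G3BP2, TIA1, TIAL1, ATXN2, ATXN2L and PABPC1, and CAPRIN1 has no transcript of that class in the tables. CAPRIN2 was chosen on its transcript usage, so its separation is no test. The share of all genes with this class separate was not counted. The difference between CAPRIN2 and the other genes was not tested.

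A wider list of 61 stress-granule genes in 5 groups was read in the same fit, and all 61 were tested. None was called by edgeR, beside 0.164% of all genes. An unadjusted p under 0.05 was found for 13 genes, 8 higher and 5 lower, beside 11.4% of all genes. The CPM groups did not overlap for 17 higher and 6 lower genes, beside 8.87% and 9.16% of all genes. On the TPM scale 5 genes were higher and 7 lower without overlap, beside 5.49% and 9.16% of all genes. The balance thus depended on the scale, for all genes as for the list. Within the same-numbered pairs, CPM was higher in siDDX5 in every pair for 28 genes and lower for 9, beside 21.8% and 21.1% of all genes. The median log2 fold change was 0.09, beside 0.00 for all genes tested. DESeq2 called PPP1R15B and SERBP1, where it called 2.99% of all genes, and a fit blocked on replicate number called PPP1R15B and EIF2S1, where that fit called 2.6% of all genes.

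Among the 7 eIF2alpha kinases and phosphatase subunits, PPP1R15B, the constitutive subunit that directs a phosphatase to eIF2alpha, gave the largest difference of the list. It measured 168.4, 203.9 and 194.0 CPM in control cells and 265.3, 287.5 and 271.0 CPM in siDDX5. All siDDX5 libraries stood well above all control libraries, in TPM too. The counts differed by 0.54 (log2; SE 0.11), with an adjusted p of 0.085 by edgeR and 0.0161 when blocked. DESeq2 gave 0.55 with an adjusted p of 0.000944. Of the kinases, EIF2AK2, which senses double-stranded RNA, had a log2 fold change of 0.25 (SE 0.11, adjusted p 0.428), and EIF2AK4, which senses uncharged transfer RNA, had -0.26 (SE 0.10, adjusted p 0.394). The median of the 7 was 0.07.

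The 14 translation initiation factors had a median of 0.10, with 3 unadjusted p values under 0.05, all higher, beside 11.4% of all genes in either direction. In CPM, 6 were higher without overlap, beside 8.87% of all genes. In TPM 0 of 14 were separate, beside 5.49% of all genes on the higher and 9.16% on the lower side. EIF2S1, which encodes the eIF2alpha subunit that the stress kinases phosphorylate, measured 167.7, 201.4 and 174.5 CPM in control cells and 222.4, 262.4 and 228.0 CPM in siDDX5. The groups did not overlap in CPM, and the log2 fold change was 0.39 (SE 0.12, adjusted p 0.25, and 0.0477 when blocked). In TPM they did, at 216.2, 293.1 and 231.3 against 283.3, 265.5 and 274.8, and the log2 fold change was 0.21 with length-scaled counts (adjusted p 0.649) and 0.16 by limma on TPM (adjusted p 0.743). EIF4B, a helper of the eIF4A helicase, had 0.33 (SE 0.13, adjusted p 0.369), and EIF4E, the cap-binding protein, had 0.29 (SE 0.10, adjusted p 0.328).

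The 14 scaffold and remodelling partners had a median of 0.15. SERBP1, a protein of idle ribosomes that also joins the granule, measured 665.3, 618.0 and 591.4 CPM in control cells and 821.1, 879.6 and 749.4 CPM in siDDX5. The groups were separate on both scales, the counts differing by 0.39 (log2; SE 0.11, adjusted p 0.236 by edgeR), and DESeq2 gave the same fold change with an adjusted p of 0.0371. NUFIP2, a partner of G3BP1, had 0.32 (SE 0.14, adjusted p 0.426), and LSM14A, shared with processing bodies, had 0.19 (SE 0.10, adjusted p 0.515). Among the 17 other RNA-binding proteins, with a median of 0.07, ELAVL1 had -0.34 (SE 0.10, adjusted p 0.235), ZC3HAV1 -0.39 (SE 0.12, adjusted p 0.253) and YTHDF2 0.29 (SE 0.11, adjusted p 0.355). ELAVL1 binds AU-rich messenger RNA, ZC3HAV1 is an antiviral zinc-finger protein, and YTHDF2 reads m6A.

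The 9 genes of granule disassembly and clearance had a median of 0.06. HDAC6, the cytoplasmic deacetylase that the granule needs to form, measured 138.5, 128.4 and 136.4 CPM in control cells and 97.2, 91.2 and 116.7 CPM in siDDX5. The groups did not overlap in CPM and did in TPM, with a log2 fold change of -0.40 (SE 0.12, adjusted p 0.247). SQSTM1, an autophagy receptor, had 0.38 (SE 0.20, adjusted p 0.50) with overlapping groups, higher in each of the 3 pairs (SE 0.11, adjusted p 0.108 when blocked), and ULK1, an autophagy kinase, had -0.26 (SE 0.12, adjusted p 0.475). The largest differences of the wider list thus lay in both directions.

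**Figure D5:**
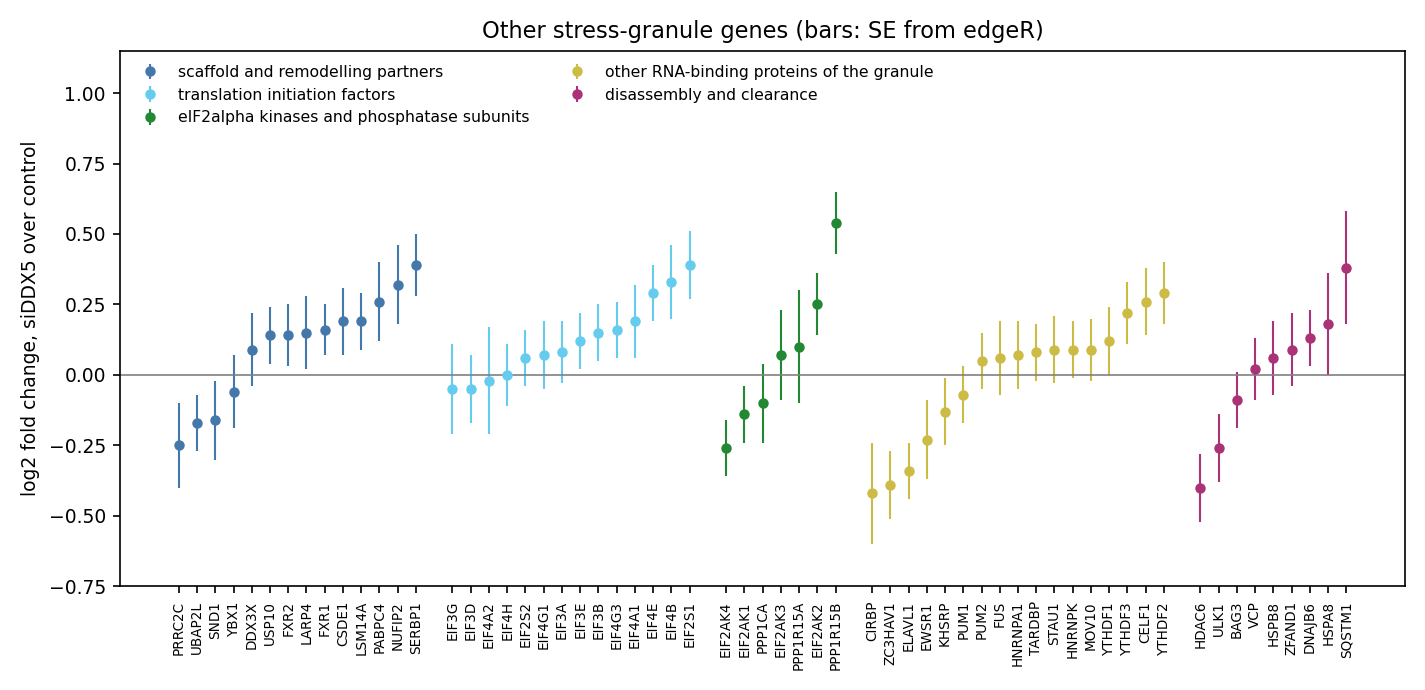
Log2 fold change of siDDX5 over control for the 61 genes of the wider list, coloured by group of function and ordered by size within it, with bars for the edgeR standard error. Values lie between -0.42 and 0.54, and PPP1R15B is the highest.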

How the data were processed

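Libraries were made with a stranded TruSeq mRNA kit, per the labels' protocols. The submitters' processing notes name bcl2fastq 2.20, FastQC 0.11.8, cutadapt 1.11, kallisto 0.46.0 and GRCh38. For each library the authors deposited estimated counts and TPM values per transcript. Kallisto divides reads shared by transcripts among them, and the tables hold no error for that division. The annotation release used by the authors is not given in the sources used here.

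Of 188753 transcripts, 169797 were joined to GENCODE release 29 by identifier, 15321 by symbol and 890 by position, and 2745 were left out. All 208 transcripts of the 10 genes were joined by identifier. Estimated counts summed per gene were rounded and tested with glmQLFTest in edgeR 4.0.16 (R 4.3.3) after filterByExpr and TMM scaling, with group as the only term. Adjusted p values are Benjamini-Hochberg over all features, called under 0.05. The standard error is the fold change divided by the root of F. Usage was tested with diffSpliceDGE. Exon inclusion, an analysis added after the data had been seen, was tested with limma 3.58.1 on the log2 ratio of TPM + 0.1 with and without the exon.

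The members and lists were chosen with earlier results of these data known. Named are the 10 genes and 3 genes of each wider group with the smallest p. Transcripts named were taken from those with at least 5% in either group or the smallest usage p, and not all of these are given. Same-numbered libraries deviated together (correlations 0.233, 0.316 and 0.657 over 15223 genes). The numbers, from the titles, were therefore used to pair libraries, but only for the counts within pairs and the fits with the replicate block. The main tests left the pairing out. At the gene level the main test called 25 of 15223 genes, and the fit with the replicate block called 396. Tested on simulated counts, the gene test recovered 92% of 200 genes changed by 1 on the log2 scale, with 8 false calls among 15252. The usage test recovered 87.5% of 200 genes with 1 transcript changed by 2, with 30 false calls among 10713. The simulated counts had a fixed spread, no shared deviation of same-numbered libraries and no error of read division, and only well-counted features were changed. These rates therefore do not give the power for the smaller differences seen here. The labels call the replicates biological but give no cultures, so p values measure the spread between these libraries. Alternatives are in the closing section.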

Additional observations from a re-analysis of the deposited data

How the results depend on the processing

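The gene-level count among the 9 tested members was 0 in all 15 alternatives (DESeq2 1.42.0, other scaling and filters, TPM-based fits, the replicate block and each library left out). In 6 of the 15 DDX5 itself was not called (adjusted p 0.053 to 0.0959), so the count of 0 there says nothing of stability. The signs of near-zero log2 fold changes turned for CAPRIN1 (-0.06 to 0.09 over the alternatives), G3BP1 (-0.04 to 0.06), TIAL1 (-0.16 to 0.02) and FMR1 (-0.22 to 0.04). For the wider list, the count of 0 became 2 with DESeq2, beside 2.99% of all genes, and 2 with the replicate block, beside 2.6%. It became 1 with no filter on low counts (PPP1R15B, adjusted p 0.0475), a fit that called 136 genes in all. The replicate block changed no other call of a member or of a list gene. The transcript count of 0 became 3 with DESeq2, beside 2.85% of all transcripts. The usage count of 0 became 2 with the F test, beside 1.62% of all genes. Leaving out 1 library moved the usage count between 0 and 1, the 1 being PABPC1 without control replicate 3 (adjusted p 0.0111).

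The share difference of CAPRIN2 ENST00000454014.6 was 5.77 points from summed TPM, and 8.23 to 11.7 with each library left out. Inclusion of the CAPRIN2 147-base exon differed by 16.7 points from estimated counts and by 12.6 to 15.0 with each library left out. The 83-base exon gave -16.4 to -12.5, the FMR1 exon -15.2 to -12.2 and the G3BP2 exon 5.9 to 7.73. Causes of these moves were not tested. Depth limits a transcript's level below 3 counts.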
